A study of Mus musculus with 6 samples.

Results

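The genes described here are 39 mouse genes of macroautophagy and of ER-phagy, chosen by name from known components of the pathway and sorted by role into 7 groups. All 39 were found among the 22206 transcript clusters tested, each through a cluster of its own, and the cluster with the highest mean signal stood for a gene with more than 1. The arrays measured ventricular RNA of 6 mice of the C57BL/6 background, all 8 weeks old and 4 weeks off doxycycline (DOX) chow, with 2 mice and 2 arrays per group. Control mice carried only the tTA transactivator under the α-myosin heavy chain promoter (αMHC-tTA). ATF6α-cn and ATF6β-cn mice carried this driver together with a second transgene that encodes the active N-terminal part of ATF6α or of ATF6β, which DOX in the food kept repressed. Both the driver and the responder transgenes used the α-myosin heavy chain promoter, so the transgenes were aimed at cardiomyocytes while the RNA came from whole ventricle. Per the study both sexes were used, ATF6β-cn mice never given DOX died before weaning, and the transgenes were not expressed at equal levels, so a difference between the lines joins the factor with its dose. Mice of 1 group are named biological replicates in the labels.

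Autophagy wraps part of the cytoplasm in a double membrane, the autophagosome, and delivers it to the lysosome. The ULK kinase complex starts the process, a class III PI3 kinase complex marks the membrane, 2 ubiquitin-like conjugation reactions attach LC3 and GABARAP proteins to it, and cargo receptors tie the load to them. ER-phagy receptors do this for pieces of the endoplasmic reticulum (ER), and cardiomyocytes, which hardly divide, depend on autophagy to clear old mitochondria and proteins. ATF6 is one of the sensors of the unfolded protein response, which raises ER chaperones and the machinery that disposes of misfolded ER protein, and the comparison of these arrays asks which of its genes also answer to ATF6β.

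None of the 39 genes passed an adjusted p of 0.05 in ATF6α-cn or in ATF6β-cn against control, or in the comparison of the lines with each other. In ATF6α-cn the largest differences on the log2 scale were those of Atg7, which activates both conjugation reactions, at −0.75, of the cargo receptor gene Optn at −0.68, and of Ambra1, a scaffold that binds the PI3 kinase complex, at 0.62. In ATF6β-cn they were those of Atg16l1, which places LC3 conjugation on the membrane, at −1.01, of Ambra1 at 0.82 and of the mitophagy receptor gene Bnip3 at 0.71. The 3 ER-phagy receptors had differences between −0.14 and 0.36.

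The arrays did register ATF6 activity in both lines. Hyou1, an ER chaperone, had a log2 signal of 10.41 and 10.25 in control, 14.77 and 14.10 in ATF6α-cn and 14.23 and 14.03 in ATF6β-cn hearts, and passed the test in both lines (limma adjusted p = 0.000534 and 0.000431). Atf6b stood at 14.80 and 14.81 on the ATF6β-cn arrays against 8.63 to 9.18 on the others. Atf6 was not higher on the arrays labelled ATF6α-cn (12.70 and 13.07) than in control (13.09 and 13.04), and whether its probes lie in the transgene is not given here, so for that line the label rests on the chaperone genes. Median log2 signals of the arrays lay between 5.58 and 5.64, and arrays of 1 group correlated at r of 0.99 or above. The negative control probe sets had a median of 5.02 to 5.08 on the control arrays and of 5.44 to 5.48 on the 4 transgenic arrays. Cardiomyocyte markers were high on every array, with a mean log2 signal over 8 genes of 18.38 to 18.41 in control, 18.41 to 18.42 in ATF6α-cn and 18.28 to 18.29 in ATF6β-cn, where Mybpc3 had the largest difference (−0.65, limma adjusted p = 0.231). Of 8 fibroblast markers 7 had a higher mean in ATF6β-cn than in control (median difference 0.63, against 0.07 in ATF6α-cn). On both ATF6β-cn arrays 6 lay above both control arrays, as 21.1% of all clusters did. Their mean log2 signal was 10.18 and 10.19 in control, 10.17 and 10.71 in ATF6α-cn and 10.37 and 11.00 in ATF6β-cn. Of 8 endothelial markers, 3 lay above control in ATF6α-cn (median difference 0.30), as 17.9% of all clusters did. In ATF6β-cn 5 lay below control (−0.24), as 23.3% of all clusters did. Endothelial means were 12.04 to 12.10 in control, 12.06 to 12.57 in ATF6α-cn and 11.91 to 11.95 in ATF6β-cn. None of these 24 marker genes passed the test in either line. Of 8 macrophage and leukocyte markers, 3 lay above and 2 below control in ATF6α-cn (median difference 0.30), as 17.9% and 21.6% of all clusters did. In ATF6β-cn 4 lay above and 1 below (0.33), as 21.1% and 23.3% of all clusters did. None of the 8 passed in either line. In RNA of whole ventricle, fewer cells of a type and less RNA per cell cannot be told apart.

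Promoters are shown for the member with a UPRE, the member with a CLEAR core and the members described by array below that hold an E-box, beside Hspa5, which encodes the ER chaperone BiP and is the textbook ATF6 target. RefSeq windows of build GRCm38.p6, 250 bases before to 50 bases after a start site, were found for 32 of the 39 members (36 windows), and none was found for Atg12, Atg16l1, Becn1, Bnip3l, Map1lc3a, Pik3c3 and Rb1cc1. On both strands the windows were searched for the ER stress element ERSE (CCAAT, then 9 bases of any kind, then CCACG), for ERSE-II (ATTGG, 1 base, CCACG), for UPRE (TGACGTGG or TGACGTGA), for the core of the CLEAR element of the lysosomal regulator TFEB (TCACGTGA) and for the E-box CACGTG, which lies inside the CLEAR core. No member window held an ERSE or an ERSE-II, motifs that 0.119% and 0.0365% of all 32851 windows held. A UPRE was present in 1 member window (2.78%, against 1.12% of all windows), that of the LC3 protease gene Atg4a, where it reads on the other strand. A CLEAR core was present in 1 (2.78%, against 0.974%), that of Atg3, and an E-box in 5 (13.9%, against 7.15%), those of Atg3, Atg5, Atg7, Atg14 and Bnip3. The 160 bases before the start site are printed in the direction of the gene, with the matches in capitals and, for ERSE, both of its outer boxes. They lie at chr16:45158669-45158828 on the plus strand for Atg3, chrX:140953685-140953844 plus for Atg4a, chr6:114670936-114671095 plus for Atg7, chr7:138909507-138909666 minus for Bnip3 and chr2:34771930-34772089 plus for Hspa5.
Atg3: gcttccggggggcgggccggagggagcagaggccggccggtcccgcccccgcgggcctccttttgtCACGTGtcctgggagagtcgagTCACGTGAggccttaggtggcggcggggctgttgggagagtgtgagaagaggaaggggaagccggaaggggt
Atg4a: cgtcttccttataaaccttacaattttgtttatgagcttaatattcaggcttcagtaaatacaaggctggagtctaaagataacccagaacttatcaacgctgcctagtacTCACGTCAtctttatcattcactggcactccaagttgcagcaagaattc
Atg7: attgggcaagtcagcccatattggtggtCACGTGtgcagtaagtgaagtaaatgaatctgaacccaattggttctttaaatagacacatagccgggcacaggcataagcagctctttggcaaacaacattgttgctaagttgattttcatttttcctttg
Bnip3: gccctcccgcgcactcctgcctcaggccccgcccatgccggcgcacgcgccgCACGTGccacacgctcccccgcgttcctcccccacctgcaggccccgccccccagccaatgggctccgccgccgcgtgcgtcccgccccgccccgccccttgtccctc
Hspa5: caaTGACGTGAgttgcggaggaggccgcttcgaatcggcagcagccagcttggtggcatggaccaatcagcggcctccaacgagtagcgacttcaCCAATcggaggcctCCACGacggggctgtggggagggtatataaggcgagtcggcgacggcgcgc
The Hspa5 stretch carries an ERSE and a UPRE, and Hspa5 rose in both lines, from 17.25 and 17.08 to 19.03 and 18.73 in ATF6α-cn (limma adjusted p = 0.037) and to 18.54 on both ATF6β-cn arrays (limma adjusted p = 0.026). The member with a UPRE, Atg4a, had a log2 difference of −0.04 in ATF6α-cn and 0.12 in ATF6β-cn, and Atg3, with the CLEAR core, one of 0.01 and −0.06, with intervals of all 4 differences inside −0.61 to 0.60. Among the 5 members with an E-box, Atg7 and Atg14 were lower in both lines and Bnip3 higher in ATF6β-cn alone by their arrays. Atg14 had a difference of −0.24 in each line. The arrays of Atg5 (−0.18 in ATF6α-cn and −0.04 in ATF6β-cn) and of Atg3 overlapped control in both lines. None of the 5 passed the test. A match of letters is a description of the window and no evidence of binding.

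**Figure D1:**
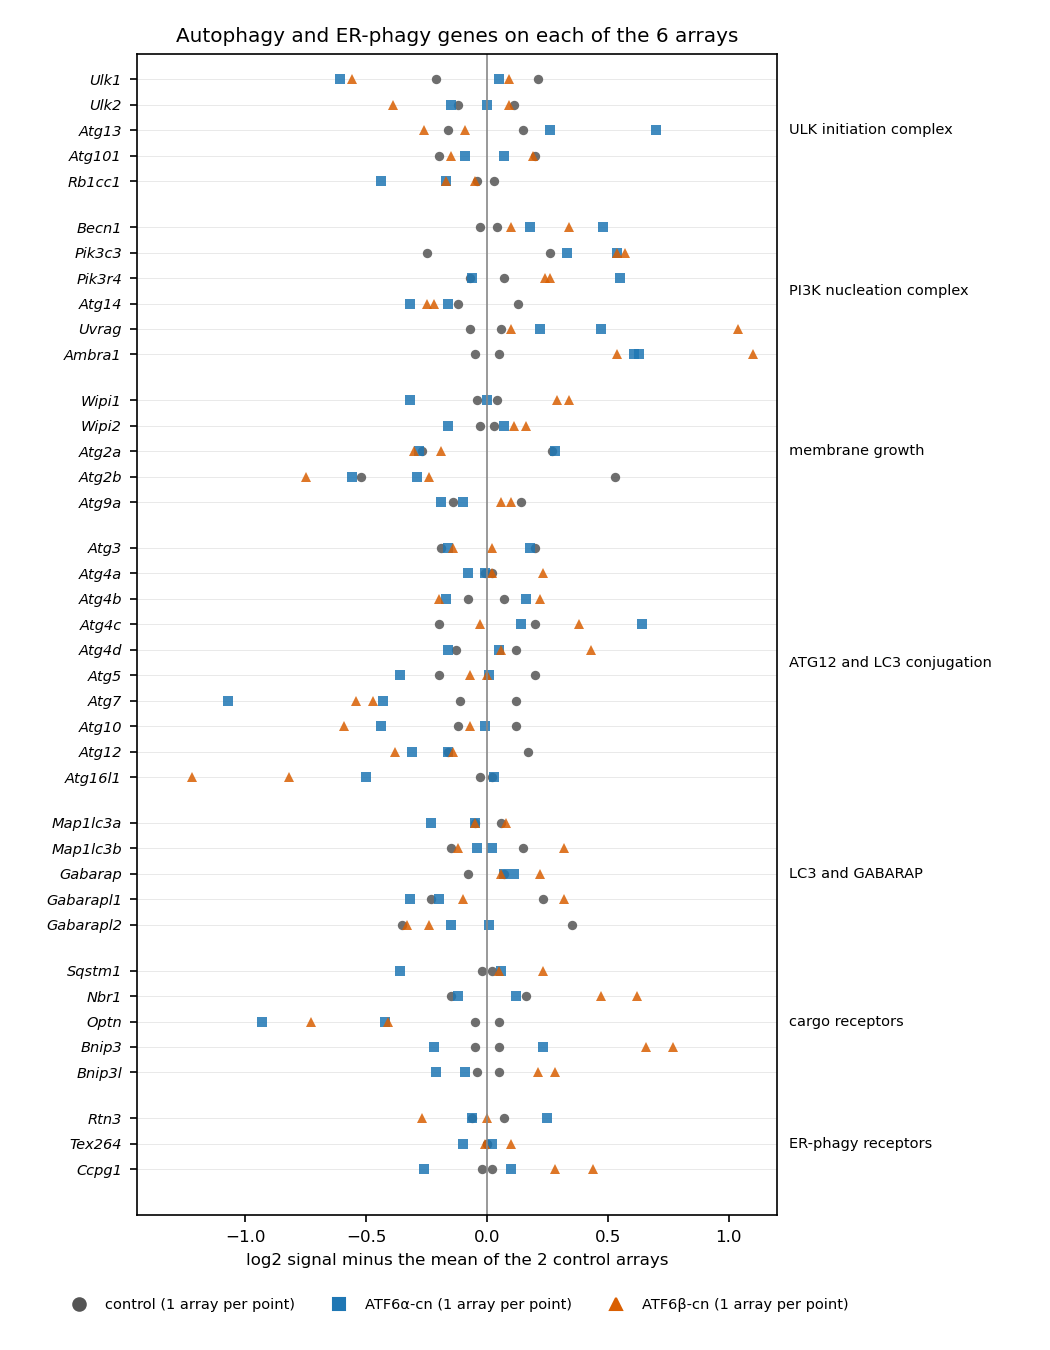
The log2 signal of each of the 39 genes on each array, as the difference from the mean of the 2 control arrays (x axis), with genes on the y axis by role group. Grey circles are control, blue squares ATF6α-cn and orange triangles ATF6β-cn arrays, 1 point per array, and the points farthest from 0 belong to Atg16l1, Atg7, Ambra1, Uvrag and Optn.

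In the ULK initiation complex the 5 genes had median log2 differences of −0.08 (ATF6α-cn) and −0.14 (ATF6β-cn). Ulk1, the kinase that starts autophagy, had log2 signals of 8.46 and 8.04 in control, 8.30 and 7.64 in ATF6α-cn and 8.34 and 7.69 in ATF6β-cn hearts. Its second array was the lower one in every group and all groups overlapped, with differences of −0.28 and −0.24. Rb1cc1, the FIP200 scaffold of the complex, was at 9.82 and 9.89 in control, 9.42 and 9.69 in ATF6α-cn and 9.81 and 9.69 in ATF6β-cn, so that both lines lay below control on both arrays, with differences of −0.30 and −0.10 (limma adjusted p = 0.706 and 0.892).

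Atg13, the subunit that joins ULK1 to FIP200, was the member of the complex on which the lines differed most. Its log2 signal was 5.31 and 5.62 in control, 5.73 and 6.17 in ATF6α-cn and 5.21 and 5.38 in ATF6β-cn. Both ATF6α-cn arrays lay above both control arrays (difference 0.49, 95% interval −0.07 to 1.04), while ATF6β-cn overlapped control (−0.17). The direct difference, ATF6β-cn minus ATF6α-cn, was −0.66 (−1.22 to −0.10, limma adjusted p = 0.420). These signals are close to those of the negative control probe sets, which were also higher on the transgenic arrays, and the part of that shift in the Atg13 values was not tested. Ulk2 and Atg101 had differences between −0.14 and 0.02 in both lines.

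The PI3 kinase complex, which makes the lipid mark on the membrane, had the highest group median, 0.34 in ATF6α-cn and 0.40 in ATF6β-cn, against −0.03 and −0.02 over all 22206 clusters. Both comparisons use the same 2 control arrays. Becn1, Pik3c3, Uvrag and Ambra1 lay above both control arrays on all 4 transgenic arrays, Pik3r4 did so in ATF6β-cn only, and Atg14 lay below both control arrays in both lines. Of all clusters 17.9% lay above both control arrays in ATF6α-cn and 21.1% in ATF6β-cn, and 21.6% and 23.3% lay below. The share of all clusters that did so in both lines at once was not computed. No gene of the complex passed the test.

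Ambra1 had log2 signals of 10.51 and 10.61 in control, 11.17 and 11.19 in ATF6α-cn and 11.66 and 11.10 in ATF6β-cn. The transgenic arrays were clear of the control arrays, and the lines overlapped each other. The differences were 0.62 (standard error 0.25, 95% interval 0.06 to 1.18, limma adjusted p = 0.529) in ATF6α-cn and 0.82 (0.26 to 1.38, limma adjusted p = 0.182) in ATF6β-cn, or 1.54-fold and 1.77-fold. Without ATF6β-cn replicate 1 the latter was 0.54. In the ordering of all clusters by the size of their test statistic, Ambra1 stood at place 1412 in ATF6α-cn and 1121 in ATF6β-cn.

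Pik3c3, the catalytic subunit VPS34, was at 7.31 and 6.80 in control, 7.59 and 7.38 in ATF6α-cn and 7.59 and 7.62 in ATF6β-cn. Its control arrays were farther apart than either pair of transgenic arrays, and the differences of 0.43 and 0.55 had limma adjusted p of 0.641 and 0.363. Uvrag, an alternative partner of beclin 1 that acts in later maturation, was at 9.18 and 9.31 in control, 9.72 and 9.47 in ATF6α-cn and 9.35 and 10.29 in ATF6β-cn. One array, ATF6β-cn replicate 2, set its mean in that line, where the difference was 0.58 (−0.13 to 1.29) with all arrays and 0.10 without that array. The same array had the highest mean of the fibroblast markers, whose part in the Uvrag value was not tested.

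Among the genes of membrane growth the medians were −0.15 in ATF6α-cn and 0.08 in ATF6β-cn. Wipi1, which binds the lipid mark, had log2 signals of 9.35 and 9.43 in control, 9.39 and 9.07 in ATF6α-cn and 9.73 and 9.68 in ATF6β-cn. Its ATF6β-cn arrays were above all the others, by 0.32 over control (limma adjusted p = 0.588) and 0.48 over ATF6α-cn (−0.02 to 0.98, limma adjusted p = 0.546). Atg2b, which moves lipid into the growing membrane, was at 8.26 and 7.21 in control, 7.17 and 7.44 in ATF6α-cn and 6.98 and 7.49 in ATF6β-cn. The control arrays of Atg2b differed by more than either line differed from their mean, and its standard error of 0.35 was the highest of the 39 genes. Wipi2, Atg2a and the scramblase gene Atg9a had differences from −0.25 to 0.13 in the lines.

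The conjugation group holds 10 genes, with medians of −0.11 in ATF6α-cn and −0.05 in ATF6β-cn. It contains the gene with the smallest adjusted p in each comparison of a line with control, Atg7 in ATF6α-cn and Atg16l1 in ATF6β-cn.

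Atg7 encodes the E1-like enzyme that activates both ATG12 and LC3, and without it neither conjugation proceeds. The lower Atg7 signal of both lines was known when these genes were chosen, so its values are given as a description. The log2 signal was 6.75 and 6.52 in control, 6.20 and 5.56 in ATF6α-cn and 6.09 and 6.16 in ATF6β-cn. All 4 transgenic arrays lay below both control arrays, with the lowest value on ATF6α-cn replicate 2. The differences were −0.75 (standard error 0.26, 95% interval −1.35 to −0.15), or 1.68-fold lower, in ATF6α-cn and −0.51 (−1.11 to 0.09), or 1.42-fold lower, in ATF6β-cn, with limma adjusted p of 0.462 and 0.448. Leaving out 1 array took the ATF6α-cn difference to between −1.08 and −0.43, the latter without ATF6α-cn replicate 2. Between the lines the difference was 0.24 (−0.36 to 0.84, limma adjusted p = 0.844). Its signal is low on the arrays, and the 5.56 on ATF6α-cn replicate 2 was close to the negative control median of that array, 5.48. The negative control probe sets were higher on the transgenic arrays than in control, and their part in the Atg7 values was not tested.

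Atg16l1 showed another order of the groups. Its log2 signal was 7.60 and 7.55 in control, 7.61 and 7.08 in ATF6α-cn and 6.76 and 6.36 in ATF6β-cn. The ATF6β-cn arrays were below all the others and ATF6α-cn overlapped control, where the difference was −0.23 (−0.82 to 0.36). In ATF6β-cn the difference from control was −1.01 (standard error 0.26, −1.60 to −0.42, limma adjusted p = 0.131), or 2.02-fold lower, at place 670 of all clusters, and against ATF6α-cn it was −0.78 (−1.37 to −0.19, limma adjusted p = 0.357), or −0.51 without ATF6α-cn replicate 1. The other genes of its complex did not share this order, with Atg5 at −0.04 and Atg12 at −0.26 in ATF6β-cn.

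Atg4c, 1 of 4 genes for the proteases that trim LC3, was at 5.69 and 6.09 in control, 6.53 and 6.03 in ATF6α-cn and 5.86 and 6.27 in ATF6β-cn. These low signals overlapped between all groups, and ATF6α-cn replicate 1 gave most of the difference of 0.39. Atg4a, Atg4b and Atg4d had differences from −0.05 to 0.25. A second cluster that lists Atg4a together with its pseudogene was not used, and was dimmer than the cluster of the gene alone (10.28 to 10.59). Its log2 signals were 8.28 and 8.05 in control, 7.70 and 7.66 in ATF6α-cn and 7.70 and 7.57 in ATF6β-cn. All 4 transgenic arrays of this second cluster lay below control, unlike those of the cluster used. Which of the 2 genes it reads was not tested. The E2-like enzyme genes Atg3 and Atg10 had differences of 0.01 and −0.23 in ATF6α-cn and −0.06 and −0.33 in ATF6β-cn, all with overlapping arrays.

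**Figure D2:**
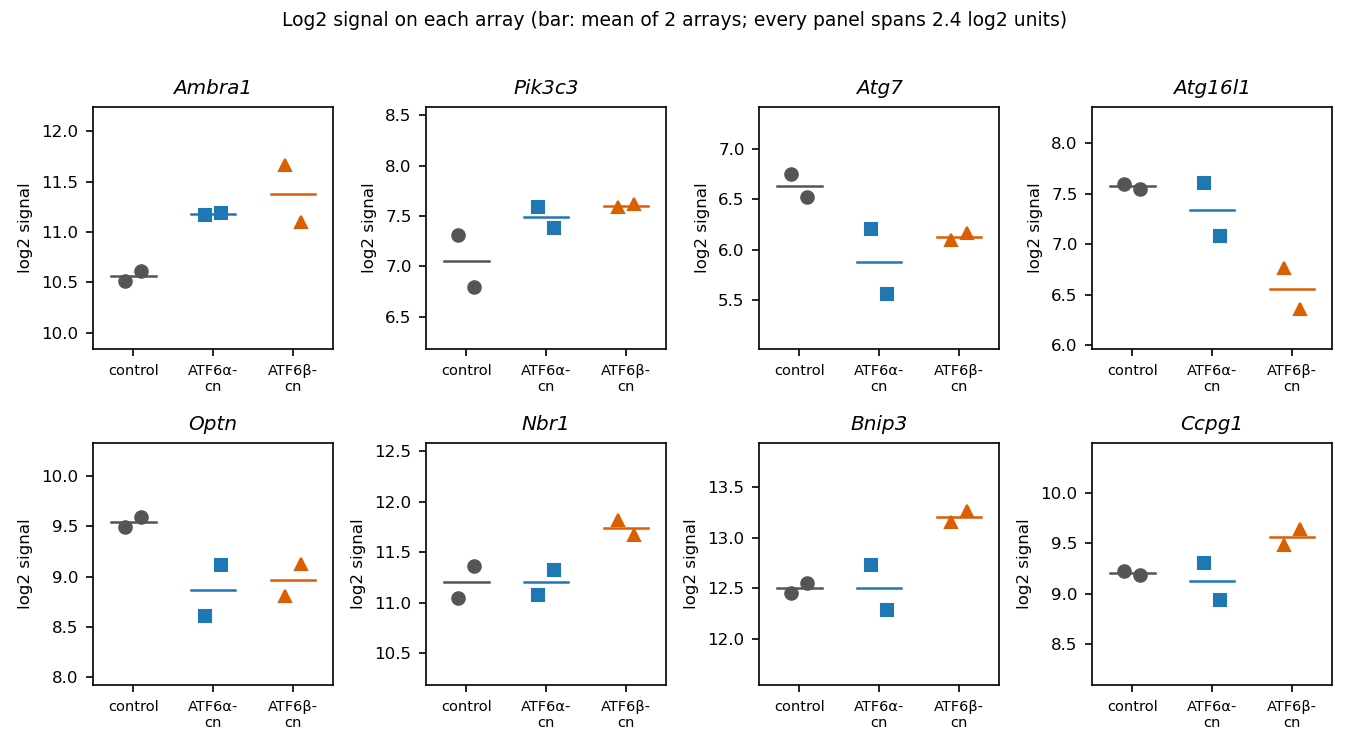
Log2 signal (y axis) of 8 of the genes on each array by group (x axis), 1 point per array, with a bar at the mean of the 2 arrays and the same span of the y axis in every panel. Ambra1 and Pik3c3 were higher and Atg7 and Optn lower than control on all 4 transgenic arrays, while Atg16l1 was lower and Nbr1, Bnip3 and Ccpg1 higher on the ATF6β-cn arrays than on all others.

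The LC3 and GABARAP genes, whose proteins coat the autophagosome, differed little between groups. Their differences lay between −0.26 and 0.10 in ATF6α-cn and between −0.28 and 0.14 in ATF6β-cn, with medians of −0.07 and 0.10. Gabarap had log2 signals of 16.17 and 16.02 in control, 16.21 and 16.17 in ATF6α-cn and 16.16 and 16.32 in ATF6β-cn, and Map1lc3a, which encodes LC3A, had 14.24 and 14.35, 14.24 and 14.06, and 14.37 and 14.24. For both genes the group means differed by no more than the 2 arrays of a single group did. The 95% interval of the Gabarap difference reached from −0.38 to 0.58 in ATF6α-cn and from −0.34 to 0.62 in ATF6β-cn, and that of Map1lc3b, which encodes the LC3B protein commonly used to follow autophagy, from −0.56 to 0.54 and from −0.44 to 0.65.

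Gabarapl1 was at 12.53 and 12.07 in control, 11.98 and 12.10 in ATF6α-cn and 12.20 and 12.62 in ATF6β-cn. Gabarapl2 was at 9.02 and 9.72 in control, 9.38 and 9.22 in ATF6α-cn and 9.13 and 9.04 in ATF6β-cn. For each of these genes the control arrays were farther apart than the arrays of either line, and both lines overlapped control. Between the lines the arrays were apart, with ATF6β-cn above ATF6α-cn for Gabarapl1 and below it for Gabarapl2 (differences 0.37 and −0.21, limma adjusted p = 0.713 and 0.877). Map1lc3a, Map1lc3b and the GABARAP genes are close relatives, and the probe sequences, which decide whether a cluster also reads a relative, were not used here.

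Cargo receptors differed between the lines more than the other role groups by their medians, which were −0.15 in ATF6α-cn, 0.24 in ATF6β-cn and 0.39 for ATF6β-cn minus ATF6α-cn. In ATF6β-cn, 4 of the 5 genes (Sqstm1, Nbr1, Bnip3 and Bnip3l) lay above both control arrays on both arrays, as 21.1% of all clusters did, and Optn lay below. Fibroblast markers were higher on the same arrays, and their part in these values was not tested. None passed the test in a comparison.

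Bnip3, whose product sits on the outer mitochondrial membrane, binds LC3 and is known as a target of hypoxia signalling, had log2 signals of 12.45 and 12.55 in control, 12.73 and 12.28 in ATF6α-cn and 13.16 and 13.27 in ATF6β-cn. The ATF6β-cn arrays were above all others, and the ATF6α-cn arrays lay on either side of control. The differences were 0.00 (−0.53 to 0.54) in ATF6α-cn, 0.71 (0.18 to 1.25, limma adjusted p = 0.225) in ATF6β-cn and 0.71 (0.17 to 1.24, limma adjusted p = 0.357) between the lines, or 1.64-fold over control. Bnip3l, its close relative NIX, was at 11.95 and 11.86 in control, 11.69 and 11.81 in ATF6α-cn and 12.18 and 12.11 in ATF6β-cn. It was the only one of the 39 genes whose ATF6α-cn arrays lay below and whose ATF6β-cn arrays lay above both control arrays, with differences of −0.16 and 0.24 and a direct difference of 0.39 (−0.08 to 0.87, limma adjusted p = 0.605).

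Nbr1, a receptor for ubiquitinated cargo, lies outside the rule for named genes and was chosen after its values were seen. Its log2 signal was 11.05 and 11.36 in control, 11.08 and 11.32 in ATF6α-cn and 11.82 and 11.67 in ATF6β-cn. The ATF6β-cn arrays exceeded the others, by 0.54 over control (0.02 to 1.06, limma adjusted p = 0.339) and 0.55 over ATF6α-cn (0.03 to 1.06, limma adjusted p = 0.488). Sqstm1, which encodes p62, had smaller differences of −0.15 in ATF6α-cn and 0.14 in ATF6β-cn.

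Optn, the ubiquitin receptor optineurin, was at 9.49 and 9.59 in control, 8.61 and 9.12 in ATF6α-cn and 8.81 and 9.13 in ATF6β-cn. All 4 transgenic arrays were below control, and the lines overlapped each other. The differences of −0.68 (−1.25 to −0.11) in ATF6α-cn, 1.60-fold lower, and −0.57 in ATF6β-cn, 1.49-fold lower, had limma adjusted p of 0.502 and 0.358. In ATF6β-cn Optn was the member of the role group with a negative difference. Leaving out 1 array took the ATF6α-cn difference to between −0.93 and −0.42, the latter without ATF6α-cn replicate 1.

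The 3 ER-phagy receptors had medians of −0.04 in ATF6α-cn and 0.05 in ATF6β-cn. Rtn3, a reticulon of ER tubules, had log2 signals of 13.25 and 13.38 in control, 13.56 and 13.25 in ATF6α-cn and 13.31 and 13.04 in ATF6β-cn. Tex264, a receptor with a single membrane span, was at 11.50 on both control arrays, 11.52 and 11.40 in ATF6α-cn and 11.49 and 11.60 in ATF6β-cn. For both genes the groups overlapped, and the 95% intervals of the differences from control lay between −0.66 and 0.61 for Rtn3 and between −0.51 and 0.52 for Tex264.

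Ccpg1, a receptor whose message is known to rise in the unfolded protein response of cultured cells, was at 9.22 and 9.18 in control, 9.30 and 8.94 in ATF6α-cn and 9.48 and 9.64 in ATF6β-cn. Its ATF6β-cn arrays were above the other 4, and its ATF6α-cn arrays lay on either side of control. The differences were −0.08 (−0.59 to 0.43, limma adjusted p = 0.942) in ATF6α-cn and 0.36 (−0.15 to 0.88, limma adjusted p = 0.545) in ATF6β-cn, and that between the lines was 0.44 (−0.07 to 0.95, limma adjusted p = 0.593).

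**Figure D3:**
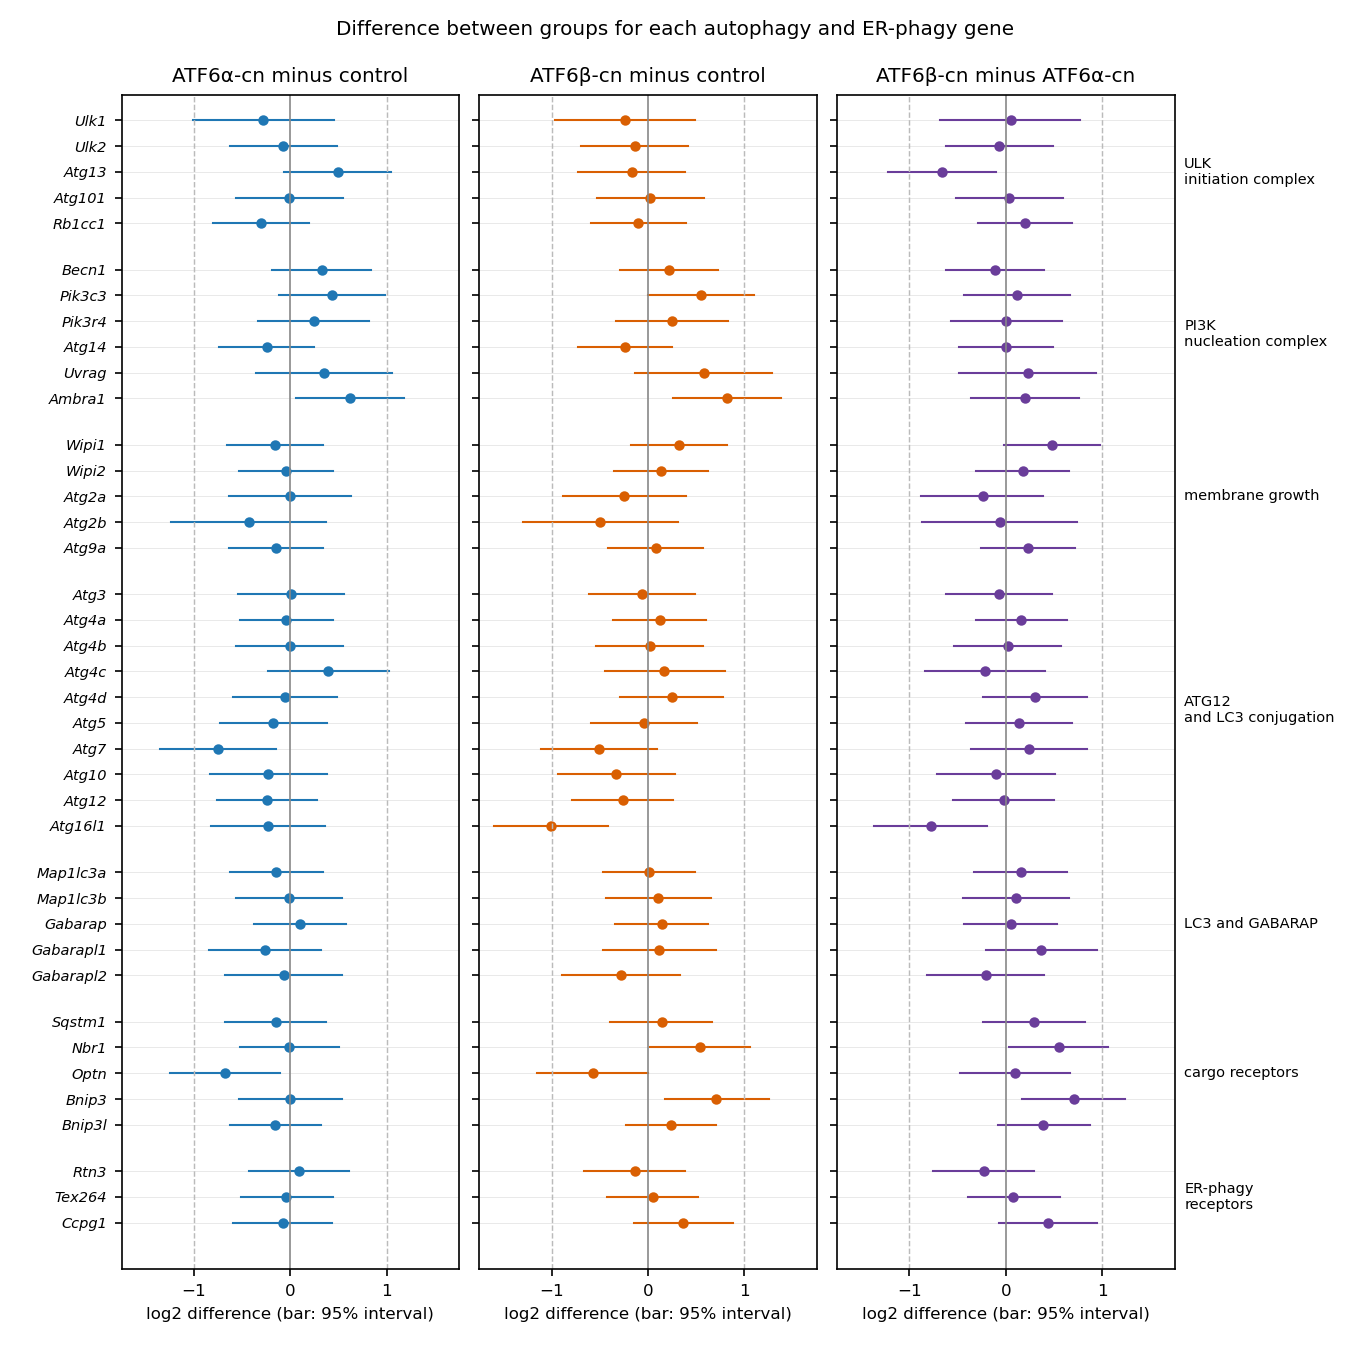
Log2 difference between groups (x axis, point) with its 95% interval (bar, not adjusted for the number of genes) for the 39 genes (y axis, by role group), in the 3 comparisons from left to right. Dashed lines mark a 2-fold difference, and most intervals, 31, 30 and 35 of 39, lay wholly between them.

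Over all 39 genes the middle 50% of the differences lay between −0.20 and 0.01 in ATF6α-cn, against −0.24 to 0.20 for all clusters, and between −0.20 and 0.23 in ATF6β-cn, against −0.26 to 0.22. At an adjusted p of 0.05, 0 genes were called higher or lower in each comparison, where 0.0946% of all clusters were called higher and 0% lower in ATF6α-cn, 0.793% higher and 0.306% lower in ATF6β-cn, and 0.221% higher and 0.0495% lower in ATF6β-cn against ATF6α-cn. With so small a share of all clusters called, a count of 0 among 39 genes does not set them apart from the rest. At an unadjusted p under 0.05 limma gave 1 gene higher and 2 lower in ATF6α-cn (4.44% and 4.48% of all clusters), 3 higher and 2 lower in ATF6β-cn (6.72% and 7.14%) and 2 higher and 2 lower between the lines (5.30% and 4.37%). The genes at an unadjusted p under 0.05 were Ambra1 (higher), Atg7 and Optn (lower) in ATF6α-cn, and Ambra1, Bnip3 and Nbr1 (higher), Atg16l1 and Optn (lower) in ATF6β-cn. Between the lines they were Bnip3 and Nbr1, higher in ATF6β-cn, and Atg16l1 and Atg13, lower.

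Arrays of the groups did not overlap for 6 genes above and 5 below control in ATF6α-cn, where 17.9% and 21.6% of all clusters did so. In ATF6β-cn they were 13 above and 5 below, against 21.1% and 23.3%, and between the lines 13 above and 3 below, against 20.3% and 19.4%. With 2 arrays in each of the groups compared, an exact permutation test for a single gene cannot go below p = 0.333. By sign alone 11 genes were above and 28 below 0 in ATF6α-cn (46.7% and 53.3% of all clusters), 23 above and 16 below in ATF6β-cn (48.1% and 51.9%), and 27 above and 12 below between the lines (50.4% and 49.6%). The medians were −0.05 in ATF6α-cn, 0.05 in ATF6β-cn and 0.10 for ATF6β-cn minus ATF6α-cn, against −0.03, −0.02 and 0.00 over all clusters.

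The intervals say which sizes the arrays leave room for. The standard errors of the differences ran from 0.21 to 0.35 with a median of 0.24. The 95% interval lay wholly within a 2-fold change either way for 31 of the 39 genes in ATF6α-cn, for 30 in ATF6β-cn and for 35 between the lines. In ATF6α-cn it reached a 2-fold rise for 4 genes and a 2-fold fall for 4, in ATF6β-cn for 5 and 4, and between the lines for 2 and 2. These intervals are not adjusted for the number of genes. With 2 arrays per group even the 2.02-fold lower signal of Atg16l1 in ATF6β-cn did not pass the test (limma adjusted p = 0.131). Smaller differences, of the size seen for most of these genes, did not pass either.

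**Figure D4:**
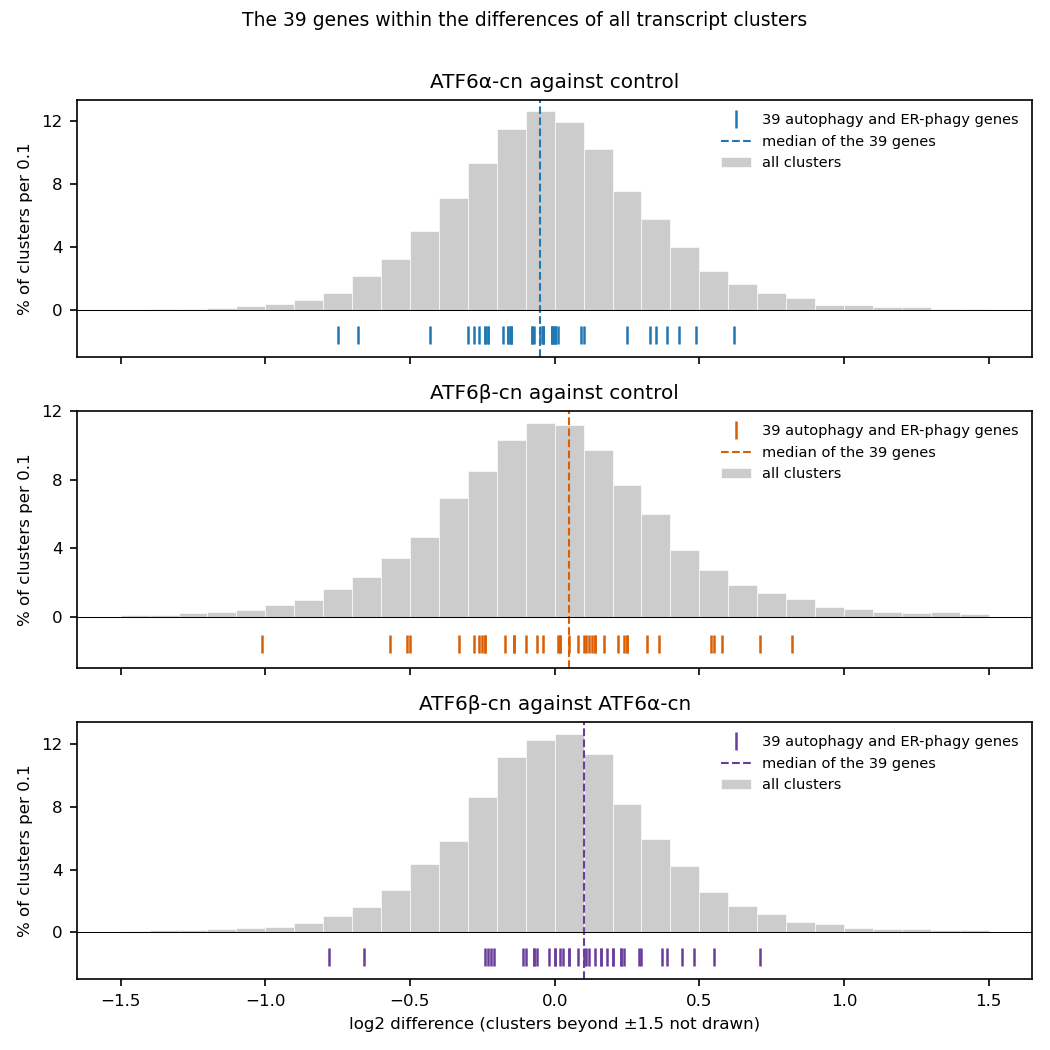
Share of all transcript clusters (y axis, percent per bin of 0.1) by log2 difference (x axis) in each of the 3 comparisons as grey bars, with the 39 genes as ticks under the bars and their median as a dashed line. The ticks span the same range as the bulk of the bars, with Atg16l1 at −1.01 the farthest in ATF6β-cn.

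Genes of the pathway outside the 39 were read from 5 further lists with 80 genes, of which 79 were measured. None of them passed an adjusted p of 0.05, and the smallest was 0.453 in ATF6α-cn, 0.0608 in ATF6β-cn and 0.226 between the lines (limma). At an unadjusted p under 0.05 limma gave 1 higher and 2 lower in ATF6α-cn, 3 and 6 in ATF6β-cn and 8 and 2 between the lines, where 4.44% and 4.48%, 6.72% and 7.14%, and 5.30% and 4.37% of all clusters were so. Of 16 other ER-phagy genes, Cdk5rap3, a part of the UFMylation system that acts on stalled ribosomes at the ER, had log2 signals of 7.24 and 7.33 in control, 7.77 and 7.35 in ATF6α-cn and 8.35 and 8.57 in ATF6β-cn. Its ATF6β-cn arrays were above all others, by 1.17 over control (0.64 to 1.70, limma adjusted p = 0.0608). Atl1, an atlastin that shapes ER tubules, was at 6.67 and 6.33 in control and lower on all 4 transgenic arrays, at 5.77 and 5.99 in ATF6α-cn and 5.48 and 5.85 in ATF6β-cn, with differences of −0.62 and −0.83. The 5.48 on ATF6β-cn replicate 1 was close to the negative control median of that array, 5.45. The part of the negative control shift in these values was not tested. The cluster read for Atl1 also lists more than 1 gene, so these values cannot be assigned to Atl1 alone. The list medians were −0.20 and −0.01.

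Of 19 other autophagosome assembly genes, those with the largest difference in a line were 2 ER membrane protein genes, Tmem41b, a lipid scramblase, and Ei24. Tmem41b was at 11.03 and 11.13 in control, 11.37 and 11.12 in ATF6α-cn and 11.88 and 11.99 in ATF6β-cn (difference 0.85, limma adjusted p = 0.125). Ei24 was at 12.74 and 12.66 in control, 12.77 and 12.69 in ATF6α-cn and 11.87 and 12.01 in ATF6β-cn (−0.76, limma adjusted p = 0.151). The ATF6β-cn arrays of both stood apart from the other 4, in opposite directions. The list medians were 0.05 and 0.10.

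Of 19 genes for fusion with the lysosome, Rubcn, an inhibitor of autophagosome maturation, and Stx17, the SNARE of the autophagosome, were lowest on the ATF6β-cn arrays. Rubcn had log2 signals of 8.63 and 8.49 in control, 8.45 and 8.42 in ATF6α-cn and 8.02 and 7.65 in ATF6β-cn, and Stx17 had 8.90 and 8.91, 8.76 and 8.73, and 8.49 and 8.03. Both were ordered control, ATF6α-cn, ATF6β-cn on every array, with differences in ATF6β-cn of −0.72 and −0.64 (limma adjusted p = 0.202 and 0.264). The list medians were −0.13 in ATF6α-cn and −0.01 in ATF6β-cn.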

How the data were processed

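Ventricular RNA of 6 mice was amplified by in vitro transcription from the 3' end, tagged with biotin and hybridised to Affymetrix Clariom S mouse arrays, 2 per group. The authors deposited 1 log2 signal per probe set and array, normalized between arrays. Affymetrix Expression Console stands in the submitters' notes. No source used here gives its version or how background was corrected. Deposited fold change and p-value columns hold the authors' own comparisons and were not used, except for the gene symbols of that table.

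Of 28846 probe sets, 6640 controls were left out and 22206 transcript clusters kept without a filter on signal. All members exceeded 5.03, a level that 95% of 1407 clusters of olfactory and vomeronasal receptors stayed under. In R 4.3.3, limma 3.58.1 fitted 1 mean per group over all 6 arrays (total degrees of freedom 8.63), with Benjamini-Hochberg adjustment over all clusters in each of 3 comparisons. P-values set a difference of group means against the spread between mice within groups. That spread was pooled over the 3 groups and moderated by that of all clusters. Signals of different genes are not compared, since probes differ. The fit was tested on simulated data.

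The members, role groups and further lists were chosen with earlier results of these data known. Named genes are those passing in any comparison, the 2 with the largest difference in each role group and line, all ER-phagy receptors and Atg7, and, in further lists, those passing or else the 2 largest. Map1lc3c was not matched. Alternatives were quantile normalization, median centring, no dim clusters, array weights, a variance trend with robust fit, the replicate number as block, only the 4 arrays compared, each array left out, the mean over clusters, and Student's t-test. The legend of the study's array figure names that t-test, while its methods name Transcriptome Analysis Console for differential expression. Protein sequences and raw images were not used here.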

Additional observations from a re-analysis of the deposited data

How the results depend on the processing

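The count of members past the threshold was 0 in each comparison in every limma setting tried, with the replicate block (0 members called) and with each array left out in turn. Student's t-test called 0 of all clusters after adjustment, so its 0 members says nothing. Without adjustment it gave 1 member in ATF6α-cn (Ambra1), 4 in ATF6β-cn (Wipi1, Atg16l1, Bnip3 and Ccpg1) and 2 between the lines (Atg9a and Bnip3l), against 6.85%, 10.2% and 7.35% of all clusters. The replicate numbers did not pair the arrays (correlations of deviations between groups of 0.009, 0.019 and −0.024), and the block left 15 of all clusters called higher in ATF6α-cn, where 21 were called without it, and 142 against 176 in ATF6β-cn. Of 63 named differences none changed its call in the limma settings. Leaving out 1 array changed the sign of 24, none over 0.50 in size, and their ranges follow. In ATF6α-cn they were Ulk1 −0.61 to 0.05, Wipi1 −0.32 to 0.00, Atg2b −0.96 to 0.10, Atg16l1 −0.50 to 0.04, Gabarapl2 −0.42 to 0.28, Bnip3 −0.23 to 0.23, Rtn3 −0.06 to 0.24, Tex264 −0.10 to 0.03 and Ccpg1 −0.26 to 0.10. In ATF6β-cn they were Ulk1 −0.56 to 0.09, Atg2b −1.02 to 0.03, Atg4c −0.03 to 0.38, Map1lc3a −0.05 to 0.07, Gabarapl1 −0.12 to 0.34, Gabarapl2 −0.63 to 0.06 and Tex264 −0.01 to 0.10. Between the lines they were Ulk1 −0.29 to 0.38, Uvrag −0.24 to 0.70, Ambra1 −0.08 to 0.48, Atg2b −0.32 to 0.19, Atg4c −0.47 to 0.04, Atg7 −0.08 to 0.56, Gabarap −0.03 to 0.13 and Optn −0.15 to 0.36. Median centring took Map1lc3a in ATF6β-cn from 0.01 to −0.01 and Bnip3 in ATF6α-cn from 0.00 to −0.01, and quantile normalization took Tex264 in ATF6α-cn from −0.04 to 0.00. With a variance trend and a robust fit 377 of all clusters were called higher and 309 lower in ATF6β-cn, where 176 and 68 were called otherwise, again with no member among them. Precision is limited by the number of arrays.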

Other observations

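The remaining lists of the pathway hold 14 other cargo receptor and mitophagy genes and 11 genes for transcription factors and regulators that act on autophagy genes. Fundc1, a mitophagy receptor of the outer mitochondrial membrane, had log2 signals of 12.07 and 11.95 in control, 12.45 and 12.25 in ATF6α-cn and 13.06 and 12.55 in ATF6β-cn, with a difference of 0.79 in ATF6β-cn (limma adjusted p = 0.193). Phb2, a prohibitin of the inner mitochondrial membrane, was at 14.34 on both control arrays, 14.03 and 14.31 in ATF6α-cn and 13.84 and 13.46 in ATF6β-cn (−0.69, limma adjusted p = 0.235). Every transgenic array lay above control for Fundc1 and below it for Phb2, and the list medians were −0.15 and 0.06.

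Ddit3 encodes CHOP, a transcription factor of the unfolded protein response. Its log2 signal was 9.43 and 9.96 in control, 10.27 and 10.62 in ATF6α-cn and 10.07 and 10.11 in ATF6β-cn. All transgenic arrays were above control, by 0.75 in ATF6α-cn and 0.40 in ATF6β-cn (limma adjusted p = 0.453 and 0.554). Trp53inp1 had a difference of −0.50 in ATF6α-cn (limma adjusted p = 0.652), with control arrays at 8.86 and 9.54. The list medians were 0.21 in ATF6α-cn and 0.05 in ATF6β-cn.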
